A study of Mus musculus with 6 samples.

Results

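Interferon-stimulated genes were examined in mouse embryo fibroblast lines that differ in MDMX, a p53 inhibitor encoded by Mdm4. The set held 39 genes chosen by symbol, and all 39 were found among the 49315 genes counted. Reads were counted in 6 lines at passage 4, of strain C57BL/6, each grown in DMEM with serum, left untreated and derived from 1 embryo. All 6 lines lacked p53. The 3 lines SG1, SG2 and SG3 were homozygous for an MDMX knock-in allele carrying W201S and W202G, which disrupts its contact with the kinase CK1-alpha, and the 3 lines WT3, WT9 and WT11 carried wild-type MDMX in the same p53-/- background. The study asked which genes the MDMX mutation affects. A line stands for 1 embryo and has 1 sample, so p-values measure the spread between lines. Differences between embryos, cultures and libraries cannot be told apart in it, and nothing in the labels tells which litter, day or run a line belongs to.

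Type I interferons are secreted proteins that warn neighbouring cells of viral nucleic acid. Receptor binding activates the kinases JAK1 and TYK2, which phosphorylate STAT proteins, and these join IRF9 in the complex ISGF3 that binds the interferon-stimulated response element (ISRE) in promoters of its target genes. Fibroblasts keep a low basal expression of these targets without any infection. The members are ISGF3 and IRF factors, sensors of viral RNA, and the effector proteins that such a response makes.

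Library depth lay between 49317925 reads (WT3) and 65457242 reads (WT9), and 16068 genes had enough reads to be tested. Mdm4 stood at 60.04 ± 3.36 CPM (counts scaled to library size, per 1e6 reads; SD, n = 3) in SG and 60.4 ± 2.33 CPM in WT lines (log2 fold change -0.01, SE 0.05, adjusted p = 0.96 by edgeR's quasi-likelihood test). A change of these codons leaves no mark in gene-level counts, so this does not check the labels. The fibroblast label was borne out by Col1a1 at 5453 to 6954 CPM and Vim at 4282 to 4947 CPM. The 9 epithelial markers summed to 54.08 to 105 CPM in SG and 69.8 to 96.5 CPM in WT lines, with Krt19, Krt18 and Cldn4 highest, and the 8 endothelial markers to 59.1 to 77.9 CPM and 48.2 to 62.3 CPM, with Kdr, Egfl7 and Erg highest. Their part in the members' levels was not tested. Epcam, of epithelia, stood at 0.28 to 0.392 CPM, Pecam1, of endothelium, at 0.0342 to 0.172 CPM, and Siglech, of plasmacytoid dendritic cells, and Ncr1, of NK cells, at 0 reads in every line. Between genotypes, 0 of 6 epithelial and 0 of 6 endothelial markers passed the test, while of 12 fibroblast markers Fn1 was higher and Thy1 and S100a4 were lower in SG. Over all tested genes, 1.9% passed. In bulk RNA, fewer cells of a type and less RNA per cell cannot be told apart.

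Promoter sequences show what most members share beyond their name. The ISRE core was searched on both strands as GAAA, any 2 bases and GAAA again, allowing overlapping matches, in RefSeq promoter windows (GRCm38.p6) from 250 bases before the start site. Windows were found for 31 members, of which 21 (67.7%) held a match, against 3.99% of all 27025 genes with windows of the same length. In 17 of the 21 a match began upstream of the start site, and Isg15 had 3 overlapping matches. The gamma-activated site, TTCNNNGAA, an element of interferon gamma targets, matched in 8 of 31 members (25.8%) and in 9.55% of all genes. A match is a description of letters, not evidence of binding. The stretches below belong to the 8 members with a match whose levels ranged most widely over lines among those averaging at least 1 CPM. They are printed 5′ to 3′ along the gene with ISRE matches in capitals, and a capital run that reads TTTC is the core on the opposite strand.
Oas1a (chr5:120907510-120907565, minus strand): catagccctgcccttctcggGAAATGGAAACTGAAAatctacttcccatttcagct
Ifit3 (chr19:34583387-34583436, plus strand): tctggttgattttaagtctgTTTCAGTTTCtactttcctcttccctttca
Isg15 (chr4:156200855-156200916, minus strand): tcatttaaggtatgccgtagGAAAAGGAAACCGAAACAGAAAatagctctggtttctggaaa
Gbp3 (chr3:142559979-142560034, plus strand): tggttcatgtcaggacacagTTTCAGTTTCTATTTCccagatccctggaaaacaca
Trim30a (chr7:104465200-104465249, minus strand): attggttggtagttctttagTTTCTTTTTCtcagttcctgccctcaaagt
Igtp (chr11:58199502-58199551, plus strand): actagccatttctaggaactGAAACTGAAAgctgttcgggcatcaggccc
Rsad2 (chr12:26456543-26456592, minus strand): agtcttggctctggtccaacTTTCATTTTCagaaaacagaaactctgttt
Ifit3b (chr19:34607783-34607832, plus strand): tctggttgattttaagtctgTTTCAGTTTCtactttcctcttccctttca
The stretches of Ifit3 and its neighbour Ifit3b were identical over all 50 bases. Ifit3 and Ifit3b each hold 1 more match in the same window, outside the stretch shown. For Trim30a, 1 more match lies in a different promoter window (chr7:104446076-104446375), of another start site. The transcripts of Ifit3 and Ifit3b were not compared here.

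No member differed between the genotypes past the threshold of adjusted p 0.05, while lines of the same genotype differed widely. Line WT3 was highest for most members and SG2 for most members lowest, with SG1, SG3 and WT9 in between and WT11 low within its own genotype. The median member spanned 2.53-fold from its lowest to its highest line, and a range of at least 2-fold was found in 25 of 37 members (67.6%, against 19.1% of all tested genes). The median size of the fold change between genotypes was 1.24. Ifitm3, which blocks virus entry at membranes, and Ifit2, which binds viral RNA, were the 2 members whose SG and WT levels did not overlap, and both missed the threshold.

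**Figure D1:**
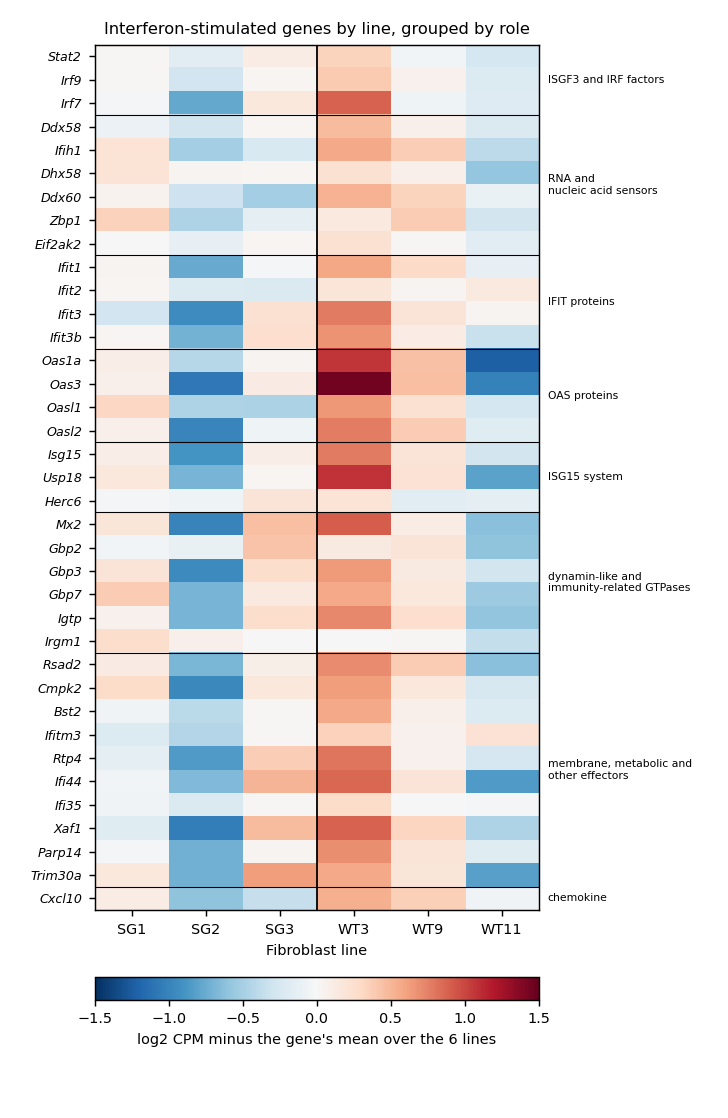
Log2 CPM of the 37 tested members (rows, by role) in the 6 lines (columns) minus each gene's own mean over lines, with SG lines left and WT lines right of the black bar. WT3 is above the gene's mean in 36 members and SG2 below it in all but 2.

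Of the 39 members, 37 had enough reads for the test and 0 passed by edgeR, against 1.9% of all tested genes, with 1.1% lower and 0.809% higher in SG. At an unadjusted p under 0.05 there were 3 members (Ifitm3, Ifit2 and Cxcl10), all lower in SG. That is 8.11%, against 15.5% of all tested genes in either direction and 8.2% lower in SG. DESeq2 called 1 member, Ifitm3, among 934 calls over the same 16068 genes, where edgeR made 306. The 2 members with separate genotype ranges, both lower in SG, were 5.41% of 37, against 21.2% of all tested genes in either direction and 11.2% lower in SG. Log2 fold changes lay below 0 in 32 of 37 (86.5%, against 49.3% of all tested genes), with a median of -0.31 against 0.00 over all tested genes. That median depended on single lines. It was -0.04 without WT3 and -0.15 without SG2, but -0.50 without SG3 and -0.56 without WT11.

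**Figure D2:**
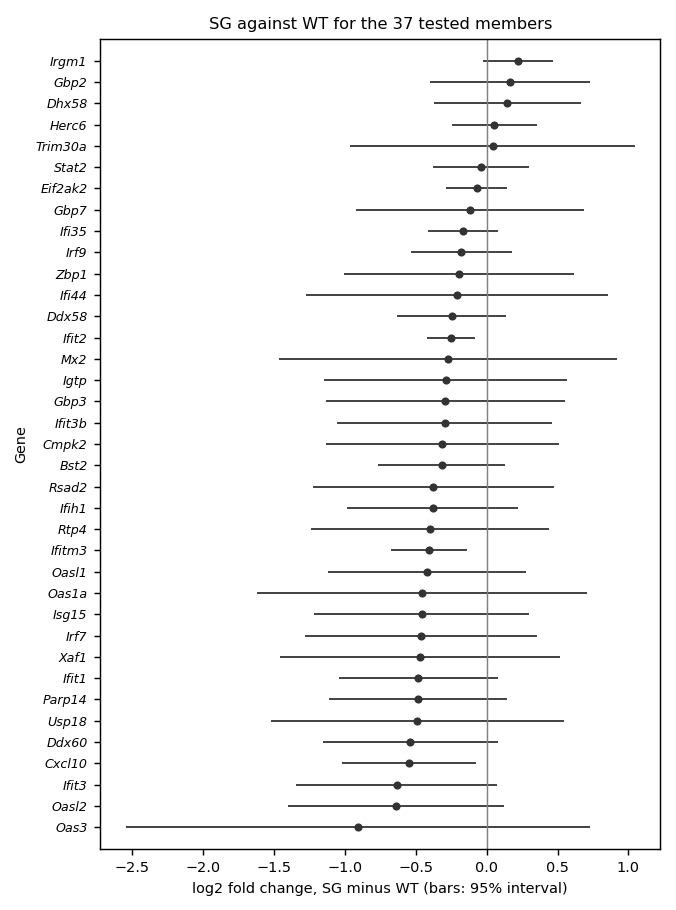
Log2 fold change of SG against WT for each of the 37 tested members (points) with its 95% interval (bars). Intervals of Ifitm3, Ifit2 and Cxcl10 lie below 0 before any adjustment, and 22 intervals reach a 2-fold fall.

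The tests left room for sizeable differences. The 95% interval included a 2-fold fall in 22 of the 37 members and a 2-fold rise in 1, Trim30a. The range over the 3 WT lines exceeded the genotype difference in 35 of 37 members (94.6%, against 74.9% of all tested genes), and the range over the 3 SG lines did so in 36 (97.3% against 76.7%). The median member spanned 1.85-fold inside WT and 1.74-fold inside SG.

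The order of lines was shared across members. WT3 had the highest CPM in 33 of 37 members (89.2%), against 14.6% of all tested genes. SG2 had the lowest in 24 (64.9% against 15.5%) and WT11 in 9 (24.3% against 22.4%). SG2 was highest in 0 members (14% of all tested genes) and WT3 lowest in 0 (13.9%). WT3 highest together with SG2 lowest held in 23 members (62.2%) and in 4.21% of all tested genes. WT3 highest with SG2 or WT11 lowest held in 29 (78.4% against 6.85%). WT3 exceeded WT11, a line of its own genotype, in all 37 tested members, against 50.7% of all tested genes, by a median of 1.85-fold. SG3 exceeded SG2, also of 1 genotype, in 32 members (86.5% against 51%). Across genotypes, SG1 exceeded WT11 in 33 members (89.2% against 50.4%). Members with a mean of at least 100 reads gave much the same shares, with WT3 highest in 23 of 25 (92%, against 13.1% of genes so selected) and WT3 highest with SG2 lowest in 17 (68% against 4.09%).

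**Figure D3:**
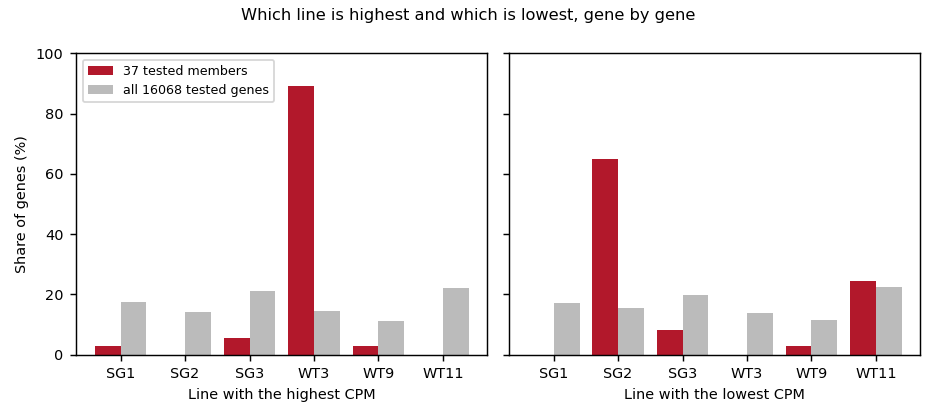
Share of genes (percent) for which each line has the highest CPM (left) or the lowest CPM (right), for the 37 tested members (red) and all 16068 tested genes (grey). WT3 is highest in 89.2% of members and SG2 lowest in 64.9%.

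Leaving out the extreme lines showed what remained of the order. Without WT3, the highest of 5 lines was WT9 in 15 members and SG3 in 15 (40.5% each, against 14.6% and 23.7% of all tested genes). Without SG2, the lowest of 5 lines was WT11 in 29 members (78.4% against 25.1%) and WT9 in 1 (2.7% against 13.9%). The next lines in the order thus came from both genotypes. The median deviation of a member from its own mean was 0.58 in WT3, 0.19 in WT9, 0.06 in SG1, 0.04 in SG3, -0.26 in WT11 and -0.66 in SG2 on the log2 scale. SG1 and SG3 lay close together in this median, and their order was not tested. The SD of the median between lines of a genotype, worked out from these same lines, was 0.417.

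The spread between lines of 1 genotype was also large beside that of other genes. The SD of log2 CPM inside genotypes had a median of 0.45 over members and 0.10 over all tested genes. Low genes scatter more, so levels were held apart. At an average of 0 to 3 log2 CPM the median SD was 0.56 for 22 members and 0.18 for all 3109 genes, and from 3 log2 CPM upward it was 0.24 for 11 members and 0.06 for 9408 genes.

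**Figure D4:**
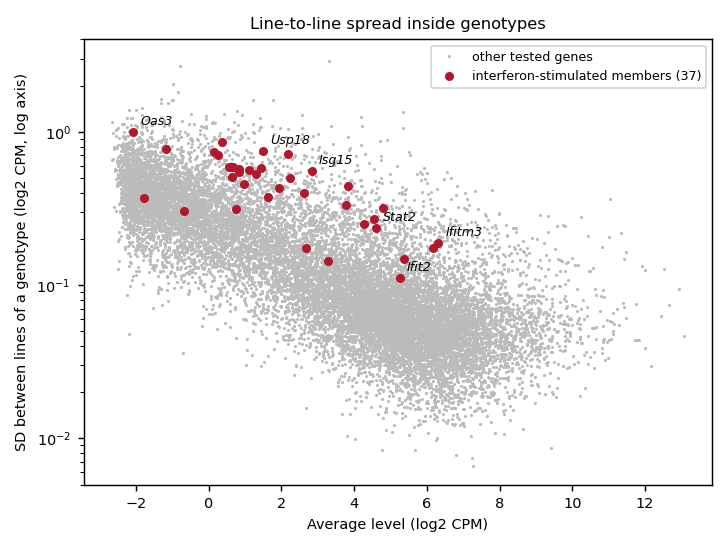
SD of log2 CPM between lines of a genotype (log axis) against average level (log2 CPM) for the tested members (red) and the other tested genes (grey). Oas3 and Usp18 lie among the widest members, and Ifit2 has the narrowest spread of the 37.

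The 3 factors that switch these genes on had a median range of 1.61-fold over lines, against 2.53-fold over all tested members. That contrast was not matched for level, and at like levels the factors spread about as much as the members did. Inside genotypes, Stat2 and Irf9 had SDs of 0.24 and 0.25 log2 CPM. The median was 0.24 over the 11 members from 3 log2 CPM upward, which include both. Irf7 had an SD of 0.54, against a median of 0.56 over the 22 members at 0 to 3 log2 CPM. Stat2 (ENSMUSG00000040033, chromosome 10, 128270576 to 128292849), the STAT found in ISGF3, stood at 24.3, 21.6 and 25.95 CPM in SG1, SG2 and SG3 and at 30.5, 23.4 and 20.04 CPM in WT3, WT9 and WT11. Its WT lines enclosed all SG lines (log2 fold change -0.04, SE 0.15, adjusted p = 0.933). Irf9, the DNA-binding subunit of ISGF3, stood at 19.3, 15.6 and 19.4 CPM in SG and 25.1, 19.9 and 16.5 CPM in WT lines (log2 fold change -0.18, SE 0.15, adjusted p = 0.646), and its exons overlap Rnf31 on the same strand. Irf7, itself an interferon target that amplifies interferon production, spread more widely. It stood at 1.63, 0.956 and 1.85 CPM in SG and 3.10, 1.59 and 1.45 CPM in WT lines, a 3.24-fold range from SG2 to WT3. WT3 lay apart from the other 5 lines there, and the genotypes overlapped (log2 fold change -0.46, SE 0.35, adjusted p = 0.601).

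RNA and nucleic acid sensors spread by a median of 1.86-fold over lines, and 5 of 6 lay below 0 in SG against WT. Ddx58, which encodes RIG-I, ranged from 18.9 CPM in SG2 to 32.01 CPM in WT3, and Ifih1, which encodes MDA5, from 9.67 to 20.3 CPM in the same lines. Eif2ak2, the kinase PKR that stops translation on double-stranded RNA, had a narrow range of 37.3 CPM (WT11) to 48.7 CPM (WT3). Dhx58, the regulatory sensor LGP2, was the sensor with a log2 fold change above 0 (0.15, SE 0.22, adjusted p = 0.817), and it was lowest in WT11. Ddx60 and Zbp1 averaged 0.592 and 0.256 CPM, with adjusted p of 0.397 and 0.846.

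Among the IFIT proteins, which bind foreign RNA, Ifit1 stood at 6.11, 3.53 and 5.86 CPM in SG1, SG2 and SG3 and at 8.92, 7.25 and 5.46 CPM in WT3, WT9 and WT11 (log2 fold change -0.48, SE 0.24, adjusted p = 0.406). SG2 was low, WT3 was high and WT11 lay among the SG lines. Ifit3, of the same family, stood at 3.59, 2.26 and 5.12 CPM in SG and 7.54, 5.01 and 4.50 CPM in WT lines, with SG3 above 2 of the WT lines (log2 fold change -0.64, SE 0.31, adjusted p = 0.384). Ifit3b ranged from 0.877 to 2.34 CPM with the same extreme lines. Ifit2 (ENSMUSG00000045932, chromosome 19, 34550694 to 34576419) differed in pattern. It stood at 38.8, 32.9 and 32.6 CPM in SG and 43.0, 39.1 and 42.0 CPM in WT lines, so each SG line lay below each WT line, SG1 and WT9 by a small gap. Its log2 fold change was -0.25 (SE 0.07, adjusted p = 0.148). By edgeR it passed with no count filter (adjusted p = 0.0456) and without SG1 (adjusted p = 0.0228), settings that called 959 and 579 genes against 306. Leaving out any other single line, it did not pass, with adjusted p from 0.139 (without WT9) to 0.415 (without SG2).

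**Figure D5:**
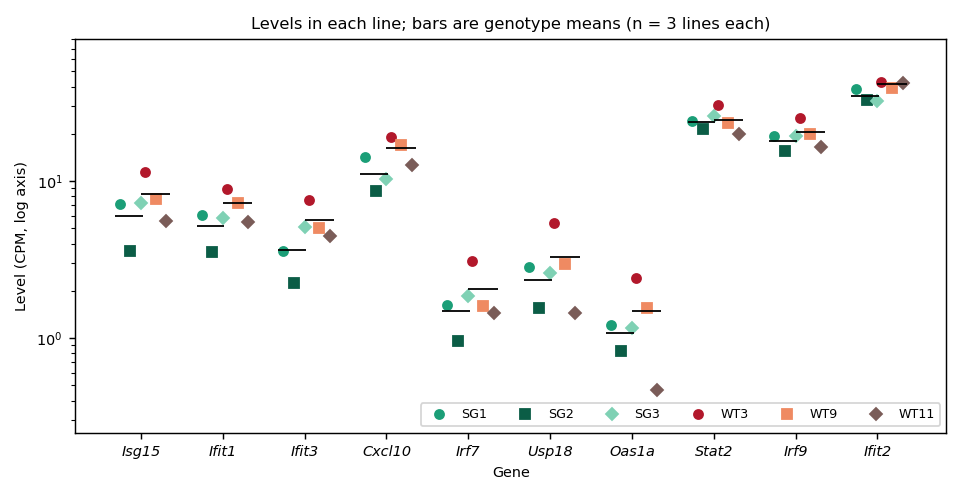
Level (CPM, log axis) of 10 members in each of the 6 lines, with SG lines in green, WT lines in red to brown, and black bars at the genotype means (n = 3 lines each). WT3 is the highest point for each of the 10 genes and SG2 the lowest for 6 of them.

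The OAS proteins, which make the signal that activates RNase L, or resemble such enzymes, spread most widely. Oas1a stood at 1.21, 0.83 and 1.16 CPM in SG and at 2.42, 1.54 and 0.466 CPM in WT lines. The WT lines alone thus spanned 5.19-fold and enclosed the SG lines (log2 fold change -0.46, SE 0.50, adjusted p = 0.723). Oasl2 stood at 2.43, 1.14 and 2.21 CPM in SG and 3.96, 3.01 and 2.03 CPM in WT lines (log2 fold change -0.64, SE 0.33, adjusted p = 0.413), with WT11 below SG1 and SG3. Oasl1 ranged from 1.34 CPM in SG3 to 2.96 CPM in WT3. Oas3 averaged 0.211 CPM and was counted with 4 to 26 reads, and Oas2, with 1 to 10 reads a line, was too low to be tested.

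The ISG15 system attaches and removes a ubiquitin-like tag. Isg15 (ENSMUSG00000035692, chromosome 4, 156199424 to 156200818), the tag, stood at 7.18, 3.57 and 7.21 CPM in SG1, SG2 and SG3 and at 11.5, 7.67 and 5.55 CPM in WT3, WT9 and WT11. WT3 and SG2 lay 3.21-fold apart while SG1, SG3 and WT9 lay close together (log2 fold change -0.46, SE 0.33, adjusted p = 0.57). Usp18, which removes the tag and also damps receptor signalling, stood at 2.85, 1.55 and 2.60 CPM in SG and 5.44, 2.97 and 1.45 CPM in WT lines. Its 3.76-fold range inside WT lines enclosed all SG lines (log2 fold change -0.49, SE 0.45, adjusted p = 0.663). Herc6, the mouse ligase for the tag, ranged by 1.29-fold, from 5.67 CPM in WT9 to 7.32 CPM in WT3, the narrowest range of any member.

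The GTPases were divided. Mx2, a dynamin-like GTPase, ranged 4.29-fold, from 0.172 CPM (11 reads) in SG2 to 0.74 CPM (37 reads) in WT3. Mx1, whose gene is disrupted in most inbred mouse strains, had 3 to 15 reads a line and was not tested. Gbp3, a guanylate-binding protein, stood at 1.65, 0.721 and 1.73 CPM in SG and 2.26, 1.58 and 1.18 CPM in WT lines, and Igtp, an immunity-related GTPase whose exons overlap Irgm2, at 1.54, 0.893 and 1.78 CPM and 2.44, 1.76 and 0.966 CPM. SG2 was low and WT3 high in both, and SG1 and SG3 lay above WT11 (adjusted p = 0.765 for Gbp3 and 0.77 for Igtp). Gbp7 ranged from 1.24 to 3.02 CPM between the same lines. Gbp2 and Irgm1 did not follow this order. Gbp2 was highest in SG3 (4.02 CPM) and lowest in WT11 (1.95 CPM). Irgm1, a regulator of the other immunity-related GTPases, stood at 85.0, 74.4 and 71.0 CPM in SG and 70.8, 71.6 and 55.4 CPM in WT lines, with the largest log2 fold change above 0 among members (0.22, SE 0.11, adjusted p = 0.388).

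Of 10 membrane, metabolic and other effectors, 9 lay below 0 and WT3 was highest in 9. Rsad2, which encodes viperin, a maker of a chain-terminating nucleotide, stood at 1.504, 0.846 and 1.47 CPM in SG and 2.28, 1.80 and 0.883 CPM in WT lines. Its neighbour Cmpk2, a mitochondrial nucleotide kinase, stood at 2.01, 0.83 and 1.85 CPM and 2.58, 1.85 and 1.40 CPM. SG2 was lowest in both, close to WT11 for Rsad2 (adjusted p = 0.684 for Rsad2 and 0.732 for Cmpk2). Xaf1, a pro-apoptotic factor, stood at 3.64, 1.99 and 5.74 CPM in SG and 7.64, 5.15 and 2.98 CPM in WT lines, and spanned 2.88-fold inside SG and 2.56-fold inside WT (log2 fold change -0.47, SE 0.42, adjusted p = 0.66).

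Rtp4, a chaperone of membrane receptors, stood at 2.28, 1.38 and 3.27 CPM in SG and 4.42, 2.63 and 2.12 CPM in WT lines (adjusted p = 0.662). Parp14, a mono-ADP-ribosyltransferase, stood at 3.53, 2.18 and 3.71 CPM in SG and 5.88, 4.14 and 3.18 CPM in WT lines (adjusted p = 0.459). Both had WT11 below SG3. Ifi44 stood at 0.96, 0.611 and 1.42 CPM in SG and 1.82, 1.13 and 0.533 CPM in WT lines, so WT lines enclosed all SG lines (adjusted p = 0.875). Trim30a, which restrains inflammatory signalling, stood at 1.21, 0.642 and 1.69 CPM in SG and 1.62, 1.24 and 0.60 CPM in WT lines, with SG3 highest and WT11 lowest (log2 fold change 0.04, SE 0.43, adjusted p = 0.977).

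Ifitm3 (ENSMUSG00000025492, chromosome 7, 141009586 to 141010770) was the most abundant member per length, at 117 RPKM (CPM divided by gene length in kilobases) on average against 30.9 RPKM for Bst2, the tetherin that holds virions at the cell surface. It stood at 67.8, 57.99 and 79.4 CPM in SG1, SG2 and SG3 and at 99.3, 81.7 and 91.3 CPM in WT3, WT9 and WT11. Each WT line lay above each SG line, WT9 narrowly above SG3. Its log2 fold change of -0.41 (SE 0.12) gave the smallest adjusted p of any member (0.133). With no count filter or with DESeq2 it passed (adjusted p = 0.00971 and 0.00539), settings that called 959 and 934 genes. By edgeR with any 1 line left out, Ifitm3 did not pass, with adjusted p from 0.0525 (without SG3) to 0.355 (without WT3). Bst2 ranged from 20.7 CPM in SG2 to 40.6 CPM in WT3, and Ifi35 from 8.23 to 11.6 CPM between the same lines.

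Cxcl10, a chemokine that draws T cells and responds to interferon and to NF-kappaB, stood at 14.2, 8.67 and 10.3 CPM in SG1, SG2 and SG3 and at 19.0, 16.9 and 12.6 CPM in WT3, WT9 and WT11. Only SG1 and WT11 overlapped. The log2 fold change was -0.55 (SE 0.20, adjusted p = 0.243), and exons of Art3 overlap the gene on the other strand.

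Other parts of the interferon pathway were read from lists beside the members. The interferons themselves were near or at 0. Of 21 ligand genes, 17 had 0 reads in all 6 lines, Ifnb1 among them, which allows up to 3 reads, or 0.0458 to 0.0608 CPM a line. Ifnz had 2 to 8 reads, Ifng 0 to 9, Ifnab 0 to 2 and Ifne 0 to 1, and 0 of the 21 reached the test. Libraries select poly(A) RNA at 1 time point, so brief or earlier interferon transcription was not measured.

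Receptors and signalling genes were steady. Of 21 tested, 0 were higher and 1 was lower in SG. Jak2, a kinase of the interferon gamma receptor and of cytokine receptors, fell, at 35.9, 34.4 and 36.9 CPM in SG and 42.2, 41.5 and 44.9 CPM in WT lines (log2 fold change -0.26, SE 0.05, adjusted p = 0.0362). Ifnar1, a chain of the type I receptor, lay between 65.6 and 73.5 CPM in all lines, and Ifnar2, the other chain, between 27.8 and 31.0 CPM. Over these 21 genes the median log2 change was -0.04.

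Genes that sense nucleic acid upstream of interferon passed in 0 of 20 cases (median log2 fold change -0.05). The 2 with the smallest unadjusted p were Tmem173, which encodes STING (log2 fold change -0.14, SE 0.05, adjusted p = 0.251), and Trim25, a ligase that activates RIG-I (-0.20, SE 0.08, adjusted p = 0.262).

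Of 55 further tested interferon-stimulated genes, 0 were higher and 1 was lower in SG, with a median log2 fold change of -0.09. Over all tested genes, 1.1% were lower and 0.809% higher in SG, the shares for each list in this paragraph. Lgals9, which encodes galectin 9, fell, at 19.7, 16.7 and 17.4 CPM in SG and 27.5, 28.9 and 25.5 CPM in WT lines (log2 fold change -0.61, SE 0.08, adjusted p = 0.0158). WT3 was highest in 25 of the 55 (45.5%, against 14.6% of all tested genes), and SG2 lowest in 30 (15.5% of all tested genes). MHC class I presentation genes, induced by both interferon types, passed in 0 of 16 cases (median -0.05), with H2-Q4 at -0.31 (SE 0.11, adjusted p = 0.238) and H2-K1 at -0.27 (SE 0.12, adjusted p = 0.332). Among 15 tested NF-kappaB response genes, 2 fell, the chemokines Ccl7 (log2 fold change -1.32, SE 0.19, adjusted p = 0.0229) and Cxcl5 (-2.11, SE 0.40, adjusted p = 0.0493), and 0 rose. WT3 was highest in 8 of those 15 (53.3%) and in 8 of the 16 MHC class I genes (50%), against 14.6% of all tested genes. SG2 was lowest in 4 of the 15 and 5 of the 16.

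Macrophages also express many of the members, so their markers were read in the same lines. Of 17 tested macrophage and blood cell markers 0 passed, and 16 lay above 0 in SG (median log2 fold change 0.56). The 18 markers summed to 40.1, 45.0 and 100.2 CPM in SG1, SG2 and SG3 and to 53.8, 51.8 and 17.3 CPM in WT3, WT9 and WT11, and none was at 0 in all lines. Lyz2, the macrophage lysozyme, stood at 28.3 CPM in SG3 and 3.797 CPM in WT11. SG3 was highest and WT11 lowest in each of the 17, while WT3 was highest in 0 and SG2 lowest in 0. WT3 exceeded WT9 in 34 of 37 members (91.9%, against 50.9% of all tested genes), the others being Zbp1, Gbp2 and Irgm1. WT11 was low both for these markers and for the members, and the part of the markers in the members' levels was not tested.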

How the data were processed

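Poly(A) RNA of 6 fibroblast lines was sequenced. The authors deposited whole-number read counts per gene for each line, unnormalised. Per the submitters' processing notes, Trimmomatic 0.36, STAR 2.5.2b, GRCm38, featureCounts from Subread 1.5.2 and DESeq2 were used. The strand setting, annotation release and handling of multimapping reads are not stated in samples' labels, so overlapping and near-identical genes are uncertain (13 of 39 members overlap exons of another gene). Symbols came from GENCODE M21. Gene coordinates are GRCm38 and 1-based, as deposited.

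SG was tested against WT with edgeR 4.0.16 in R 4.3.3 (filterByExpr, TMM, glmQLFit and glmQLFTest, 2-sided, no covariate), with Benjamini-Hochberg adjustment over 16068 genes. The SE was derived from the fold change and its F statistic. CPM use TMM-scaled library sizes, log2 CPM a prior count of 2. Tested on simulated data of the same size, the fit found 76.1% of 67 genes shifted by 1.5-fold. It found 89.6% of 67 shifted by 2-fold, and 100% of 66 at 4-fold, all drawn from genes averaging above 0 log2 CPM, with 15 false among 192 calls. These rates are for genes in general. Each gene was drawn with its own estimated spread. Recovery was not worked out separately for genes with the members' larger spread (median SD 0.45 against 0.10 log2 CPM).

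The members and all gene lists were chosen with earlier results of these data known. Per-line values are given for the 15 members of at least 1 CPM with the widest range and for Stat2, Irf9, Irf7, Isg15, Ifit1 and Cxcl10. Those of Ifit2, Ifitm3 and Irgm1 were added after their values were seen. Other lists name each gene past the threshold or the 2 of smallest unadjusted p. Ifnar1, Ifnar2, Irf8, Ptpn6 and the narrow-range members were named after their values were seen. Alternatives were other scalings, filters and tests (DESeq2 1.42.0, limma-voom with limma 3.58.1), a robust prior, and lines left out. A result on 1 further signalling gene is not reported here.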

Additional observations from a re-analysis of the deposited data

How the results depend on the processing

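The count of 0 members past the threshold held with RLE, upper-quartile and library-total scaling, a minimum of 1 CPM in 3 lines, limma-voom, and a robust prior. It was 2 with no count filter (Ifit2 and Ifitm3, both lower), 1 with DESeq2 (Ifitm3) and 1 (Ifit2) once SG1 and WT9, which alone have high Xist, were both left out, and 0 to 1 when 1 line was left out. Over all genes, 306 calls became 959 with no filter, 934 with DESeq2 and 703 without SG1 and WT9, and between 3 (without SG2) and 579 (without SG1) with 1 line left out; 24 remained without WT3, 29 without WT11 and 460 without WT9. The cause was not tested. The members' median log2 fold change lay between -0.56 and -0.04 with 1 line left out and between -0.32 and -0.29 under the other settings that kept all lines. WT3 was highest in 33 members with library totals or DESeq2 size factors and without SG2, and SG2 lowest in 24 with those scalings and without WT3; these checks were chosen after seeing the data. No paired analysis was possible because the genotypes share fewer than 2 line numbers. Members under 1 CPM (6 of 39) rest on few reads.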

Other observations

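The order of lines seen in the members was not theirs alone. Among 12520 tested genes with an average log2 CPM of 0 or more, 907 differed at least 2-fold between their highest and lowest line. Of these, 79 had WT3 highest and SG2 lowest, or 8.71%, and 16 of the 79 were members, out of 22 members that varied as much (72.7%). A further 3 were other interferon-stimulated genes. The widest of the other 60, named after their values were seen, were Enpp2, which makes lysophosphatidic acid (17.9-fold from lowest to highest line), the glutamate transporter Slc1a2 (7.83-fold) and the homeobox gene Evx2 (6.44-fold). In 43 of those 60 every SG line lay below every WT line, as in 11.2% of all tested genes, while the genotypes overlapped in each of the 16 members. Choosing genes with WT3 highest and SG2 lowest favours such separation, and the contrast with the members was not tested.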
